A study of Mus musculus with 37 samples.

Results

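The hypoxia and glycolysis genes are a list of 36 genes of glucose uptake, glycolysis, lactate handling and the response to low oxygen. They were chosen by name: each gene was read from the probe set that carried its symbol alone and had the highest mean over all 37 arrays. By this rule 34 of the 36 had a probe set, out of 18194 genes with one in the table. Gpi1 (glucose-6-phosphate isomerase) and Eno1 (the broadly expressed enolase) had none and were not analysed here. All 34 passed the filter on low values, and 31 lay above the background level of 3.189 on the log2 scale on all 37 arrays. The other 3 did so on 36 arrays (Ankrd37), 14 arrays (Car9) and 6 arrays (Slc16a3).

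The cells were primary astrocytes of newborn mice, grown in serum-rich medium and nucleofected with a hygromycin-resistance plasmid, either with CDCA7L in it or empty, and stably transfected. Cdca7l encodes a nuclear protein that binds MYC. The Cdca7l groups held 5 arrays of males and 4 of females of strain 129S4/SvJae (129), and 5 of males and 4 of females of strain C57BL/6J (B6). The vector groups held 5 arrays of 129 males, 4 of 129 females, 5 of B6 males and 5 of B6 females. Per the series' design text, the cultures were independent isolates. Arrays of the Cdca7l and vector groups share clone labels: 22 labels cover the 37 arrays, and 15 of them occur with both plasmids. All cultures were kept under 1 stated growth condition, and no oxygen level is given in the labels.

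Glycolysis turns glucose into pyruvate, which enters the mitochondria or is reduced to lactate. Astrocytes are known for a high rate of this pathway and for releasing lactate that neurons can use. When oxygen is short, the prolyl hydroxylases that mark HIF alpha subunits for destruction slow down, and the HIF complex binds short DNA motifs beside many genes of this list and raises their transcription.

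The plasmid label was borne out by Cdca7l itself: its log2 level lay between 10.15 and 14.42 on the Cdca7l arrays and between 4.12 and 10.43 on the vector arrays. Within each strain and sex the plasmid groups did not overlap (two-sided exact permutation test, p = 0.00794 in 129 males, 0.0286 in 129 females, 0.00794 in B6 males and 0.0159 in B6 females, the smallest value possible in each). Of the 10 astrocyte markers listed, none was at background on every array, and 9 passed the filter on low values. None of the 7 oligodendrocyte lineage markers with a probe set was at background on every array either, and 4 of them passed the filter. This criterion alone therefore does not identify the cells. The array of 129 female vector 1(3) had an upper quartile of 8.36 on the log2 scale, where the other 36 arrays lay between 9.03 and 9.51. For the array labelled B6 female vector 5.1(1), the Xist level was 2.40, against 10.71 to 12.20 on the remaining 16 arrays labelled female and 2.30 to 2.50 on the 20 labelled male. The Y-linked Eif2s3y was at 11.91, against 2.26 to 2.73 on those females and 11.73 to 12.71 on the males. By both genes this array matched the males and not its label. Both doubted arrays were kept as labelled, this one among the females, and values without both are given where a call changed.

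Among the transporters, the glucose carriers Slc2a1 (GLUT1) and Slc2a3 (GLUT3, the neuronal form) ranged over the 37 arrays from 12.93 to 13.78 and from 8.02 to 12.46 on the log2 scale. The lactate carrier Slc16a1 (MCT1) ranged from 11.26 to 13.65. Slc16a3 (MCT4), the lactate exporter of glycolytic cells, ranged from 2.36 to 8.33 and was above background on 6 arrays, all of them of males. Slc2a1 lay within a narrow band, while Slc16a3 was either at background or well above it.

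Of the glycolytic enzymes, Pgk1, Pgam1, Tpi1 and Aldoa varied least between cultures of 1 group. Their pooled within-group standard deviations were 0.07, 0.10, 0.13 and 0.14 on the log2 scale. The neighbouring Aldoc, the brain-enriched aldolase, had the largest such value of the 34 members, 1.78, and ranged from 5.99 to 13.81. The 3 subunits of phosphofructokinase, the committed step of the pathway, had pooled standard deviations of 0.58 (Pfkl, the liver type), 0.84 (Pfkm, the muscle type) and 0.58 (Pfkp, the platelet type). Hexokinase 1 (Hk1) had 0.30 and the inducible hexokinase 2 (Hk2) 0.71. The measured levels of cultures of the same strain, sex and plasmid therefore differed far more in isozymes such as Aldoc and Hk2 than in Pgk1, Pgam1, Tpi1 and Aldoa. The means of those last genes, 13.32 to 14.22, lay near the highest value of the table, 15.26. Ldhb, with a mean of 14.09, had a standard deviation of 0.36. The part of signal near the upper end in the small spreads was not tested.

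The oxygen-sensing members showed a like range of spread. Hif1a and Epas1 (HIF-2 alpha), the regulated subunits of the HIF complex, had pooled within-group standard deviations of 0.35 and 0.40. Egln1, the main oxygen-sensing prolyl hydroxylase, had 0.26, and Egln3, a hydroxylase that is itself a HIF target, had 0.97. Over all 34 members this spread was larger in 129 cultures in 26 and larger in B6 cultures in 8, with medians of 0.55 in 129 and 0.46 in B6. That is 76.5% of the members, against 52.9% of all tested probe sets. Without 129 female vector 1(3) it was larger in 129 in 22 members (64.7%), against 42.9% of all tested probe sets. Pdk2, a kinase that inhibits the pyruvate dehydrogenase complex, had 1.18 in 129 and 0.47 in B6. Car9 and Egln3 went the other way, Car9 with 1.16 in 129 and 1.67 in B6, and Egln3 with 0.87 in 129 and 1.07 in B6.

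The promoters of 6 members are shown because these genes form 3 of the pairs that varied most closely together between cultures, described further on. Each window runs from 250 bases before to 50 bases after the start of the gene, 5′ to 3′ on the gene's strand, and comes from RefSeq with build GRCm38.p6. Capitals mark ACGTG on either strand, 1 form of the core of the hypoxia response element, and CACGTG therefore holds 2 overlapping matches. The other form, GCGTG, is not marked.
Ldha (lactate dehydrogenase A, chr7:46845554-46845853, + strand): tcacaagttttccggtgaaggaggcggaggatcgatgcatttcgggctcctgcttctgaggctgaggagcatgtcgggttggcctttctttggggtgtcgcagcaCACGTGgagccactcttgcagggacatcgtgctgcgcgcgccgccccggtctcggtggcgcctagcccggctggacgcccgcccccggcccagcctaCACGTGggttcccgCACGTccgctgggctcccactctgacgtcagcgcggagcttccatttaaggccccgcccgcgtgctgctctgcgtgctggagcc
P4ha2 (collagen prolyl 4-hydroxylase alpha 2, chr11:54100674-54100973, + strand): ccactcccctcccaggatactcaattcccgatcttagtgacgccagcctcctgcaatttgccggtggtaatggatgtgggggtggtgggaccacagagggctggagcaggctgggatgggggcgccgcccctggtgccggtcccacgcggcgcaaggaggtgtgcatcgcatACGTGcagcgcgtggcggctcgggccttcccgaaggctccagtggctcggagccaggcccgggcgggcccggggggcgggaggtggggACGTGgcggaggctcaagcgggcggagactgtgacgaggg
Pdk1 (pyruvate dehydrogenase kinase 1, chr2:71872974-71873273, + strand): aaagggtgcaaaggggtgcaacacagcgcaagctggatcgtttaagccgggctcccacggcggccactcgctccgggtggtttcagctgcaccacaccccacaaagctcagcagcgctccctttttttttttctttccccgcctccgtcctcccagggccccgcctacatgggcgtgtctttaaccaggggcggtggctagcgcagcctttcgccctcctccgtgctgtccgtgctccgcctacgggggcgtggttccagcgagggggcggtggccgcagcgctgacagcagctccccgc
Bnip3 (a mitochondrial protein of cell death and mitophagy, chr7:138909457-138909756, - strand): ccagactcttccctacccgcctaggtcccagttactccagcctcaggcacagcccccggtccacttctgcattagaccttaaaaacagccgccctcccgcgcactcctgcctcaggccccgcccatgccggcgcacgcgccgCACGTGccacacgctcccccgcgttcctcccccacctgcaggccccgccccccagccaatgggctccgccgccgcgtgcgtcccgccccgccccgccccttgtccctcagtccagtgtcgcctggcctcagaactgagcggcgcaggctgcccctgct
Ldhb (lactate dehydrogenase B, chr6:142507908-142508207, - strand): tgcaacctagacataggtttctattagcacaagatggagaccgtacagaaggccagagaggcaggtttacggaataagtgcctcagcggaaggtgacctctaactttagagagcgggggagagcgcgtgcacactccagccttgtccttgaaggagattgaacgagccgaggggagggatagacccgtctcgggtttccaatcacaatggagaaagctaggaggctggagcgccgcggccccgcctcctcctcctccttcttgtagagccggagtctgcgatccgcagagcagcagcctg
Pdk2 (pyruvate dehydrogenase kinase 2, chr11:95041322-95041621, - strand): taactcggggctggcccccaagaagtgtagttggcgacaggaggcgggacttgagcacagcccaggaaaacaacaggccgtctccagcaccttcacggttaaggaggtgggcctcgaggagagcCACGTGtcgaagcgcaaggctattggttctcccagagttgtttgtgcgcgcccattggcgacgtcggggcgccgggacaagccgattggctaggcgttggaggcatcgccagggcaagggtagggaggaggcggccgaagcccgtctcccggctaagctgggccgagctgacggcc

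The Ldha window held 5 matches to ACGTG, starting at -145, -144, -48, -47 and -34 from the start of the gene, and the P4ha2 window held 2, at -78 and 10. Bnip3 and Pdk2 held 2 each, overlapping in 1 CACGTG, while Pdk1 and Ldhb held no ACGTG. Of the unmarked GCGTG, Bnip3 held 3 matches, Ldha, P4ha2 and Pdk1 held 2 each, Ldhb held 1 and Pdk2 held 0. RefSeq windows were at hand for 31 of the 34 genes, 43 windows in all since some genes have several starts. Of these 43 windows 26 (60.5%) held ACGTG on either strand, against 6447 of 32851 windows of all genes (19.6%). GCGTG was in 24 of the 43 (55.8%), against 10639 of all windows (32.4%). The member windows also differed in base composition: their median GC content was 62.3% and their median number of CG pairs 20, against 52.7% and 7 over all windows. The part of this in both motif counts was not tested. A match is a string of letters and not a shown binding site. No array of this series measured binding.

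Strain was the comparison in which members passed the test. Arrays of 129 were compared with those of B6 in a linear model with 1 mean for each of the 8 groups (limma), averaged over sex and plasmid, at a Benjamini-Hochberg adjusted p under 0.05 over 25579 probe sets. In 129 cultures 4 of the 34 members were lower and 3 were higher. Those 7 are 20.6% of the members, where 25.2% of all tested probe sets passed, so the members passed at about the background rate. The median difference, 129 minus B6, was -0.09 over the members and 0.00 over all tested probe sets. P-values here measure the spread between arrays, of which some share a clone label.

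**Figure D1:**
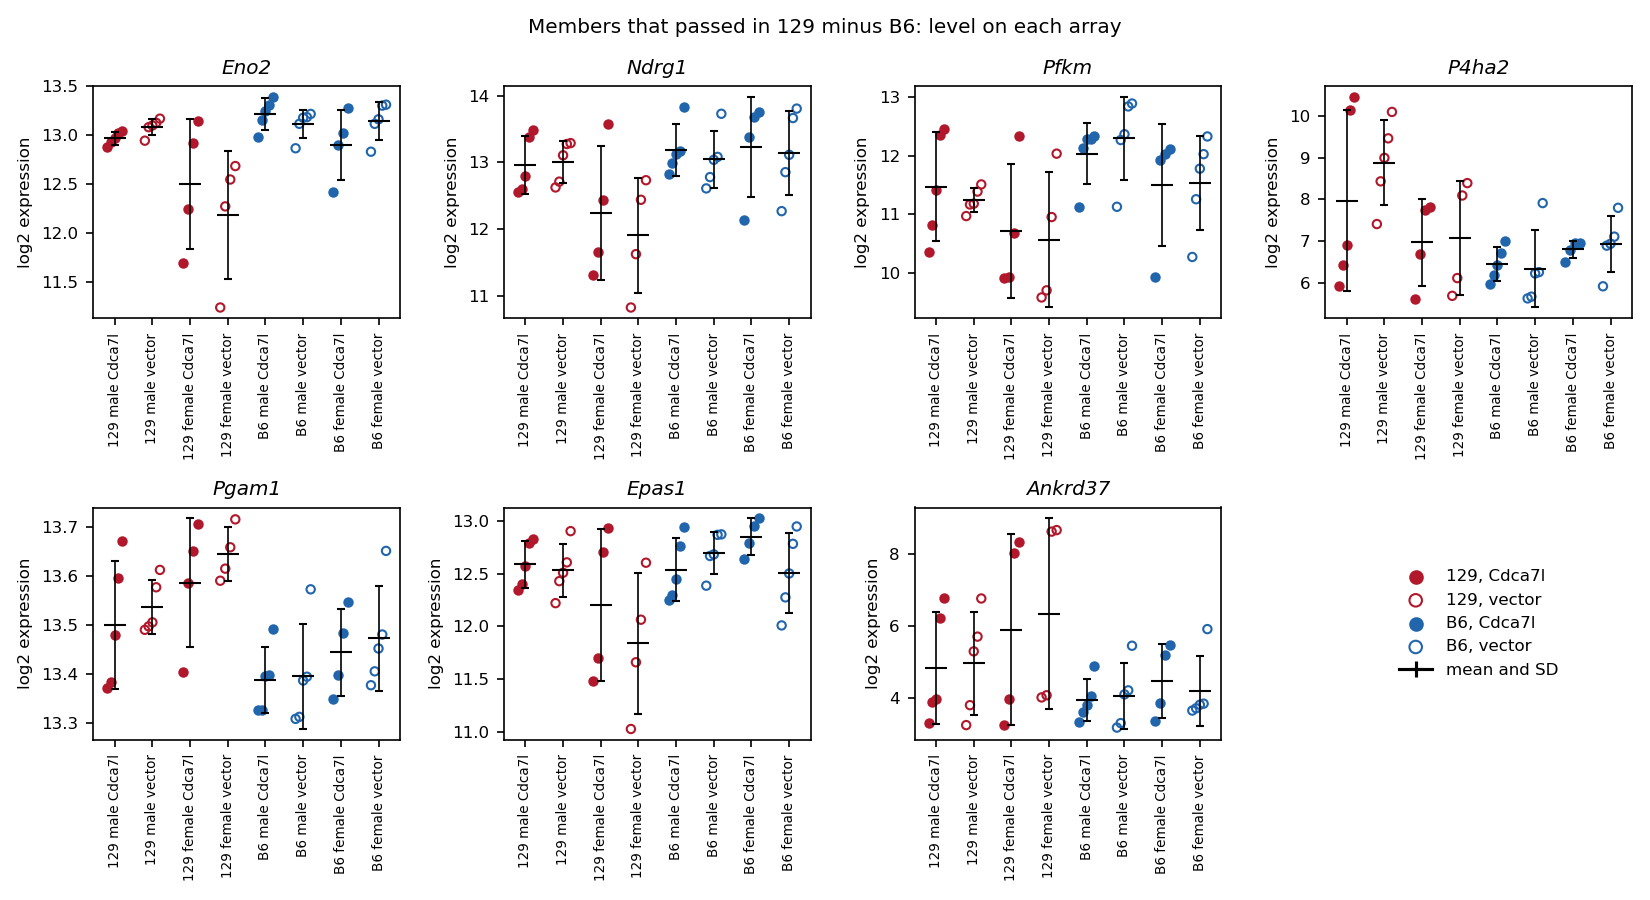
Log2 expression (vertical axes) of the 7 members that passed in 129 minus B6, on each of the 37 arrays by group (horizontal axes), with filled points for Cdca7l and open points for vector, and bars for the group mean and SD. The 129 and B6 arrays overlap in all 7, the 129 females hold the lowest Eno2, Ndrg1 and Epas1 values, and the 129 males hold the highest P4ha2 values.

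Of the glycolytic enzymes, Eno2, Pfkm and Pgam1 passed. Eno2, the neuron-type enolase that cultured glia also express, lay between 11.23 and 13.17 with a median of 12.94 in 129, against 12.42 to 13.39 with a median of 13.16 in B6. The 2 strains overlapped, and the low values came from 129 females. Eno2 fell by 0.41 ± 0.12 on the log2 scale (SE, 18 arrays of 129 and 19 of B6), a ratio of 0.752 of 129 to B6, with limma's adjusted p of 0.0101. The difference was -0.25 and -0.03 in the males with Cdca7l and vector, and -0.40 and -0.96 in the females with Cdca7l and vector.

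Pfkm lay between 9.57 and 12.45 with a median of 11.07 in 129, against 9.93 to 12.90 with a median of 12.11 in B6. The ranges overlapped almost throughout, but the mean of 129 was lower in all 4 combinations of sex and plasmid, with differences of -0.56 and -1.06 in males with Cdca7l and vector, and -0.79 and -0.97 in females. Pfkm fell by 0.84 ± 0.27 on the log2 scale (SE), a ratio of 0.557, with limma's adjusted p of 0.0229. Pgam1, which moves the phosphate of phosphoglycerate, lay between 13.37 and 13.72 in 129 and between 13.31 and 13.65 in B6, with medians of 13.59 and 13.40. It rose by 0.14 ± 0.05 (SE) in 129, a ratio of 1.10 and limma's adjusted p of 0.0360. This was the smallest change of the 7, in a gene whose replicates hardly differed.

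The other 10 glycolytic enzymes with a probe set did not pass. Aldoc had the most negative strain difference of the 34 members, -1.34 ± 0.57 (SE) in 129 minus B6, with limma's adjusted p of 0.0797. Its arrays ran from 5.99 to 13.81 in 129 and from 9.51 to 13.75 in B6. Without both doubted arrays the Aldoc difference was -1.56 with an adjusted p of 0.0361, and that of Hk2 was 0.66 with an adjusted p of 0.0393. Hk2 stood at 0.58 ± 0.23 (SE) and an adjusted p of 0.0623 on all arrays. The lactate dehydrogenases, which convert pyruvate and lactate, had opposite signs: Ldha, the form that favours lactate, differed by 0.23 ± 0.13 and Ldhb by -0.26 ± 0.12 (limma, adjusted p of 0.175 and 0.107).

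None of the 4 transporters and none of the 4 genes that steer pyruvate or flux passed. Pdk1, Pdk2, Pfkfb3 and Pfkfb4 all had negative differences in 129 minus B6, of -0.67, -0.58, -0.67 and -0.21 (limma, adjusted p of 0.106 to 0.362). Pfkfb3 and Pfkfb4 make and break down fructose 2,6-bisphosphate, the strongest activator of phosphofructokinase. Slc16a1 differed by -0.40 (limma, adjusted p of 0.114). Slc16a3 was above background on 5 of 18 arrays of 129, all of males, and on 1 of 19 arrays of B6.

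Of the HIF subunits and oxygen sensors, Epas1 passed. It lay between 11.02 and 12.94 with a median of 12.47 in 129, against 12.01 to 13.03 with a median of 12.69 in B6. The strains overlapped, and the 129 females again held the lowest arrays. Epas1 fell by 0.36 ± 0.13 on the log2 scale (SE), a ratio of 0.781, with limma's adjusted p of 0.0462, and without both doubted arrays it did not pass (adjusted p of 0.0562). Hif1a differed by -0.11 ± 0.12, Egln1 by -0.02 ± 0.09 and Egln3 by 0.15 ± 0.31 (limma, adjusted p of at least 0.510). Probe sets of Hif1a disagreed: one with a lower mean was at -0.65 with an adjusted p of 0.00486, and another at 0.30 with an adjusted p of 0.143.

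Of the 9 remaining hypoxia response genes, 3 passed. Ndrg1, a stress-induced differentiation gene, lay between 10.82 and 13.58 with a median of 12.67 in 129, against 12.13 to 13.83 with a median of 13.11 in B6. The strains overlapped and the difference lay mostly in the females, -0.99 and -1.24 with Cdca7l and vector, against -0.22 and -0.05 in the males. Ndrg1 fell by 0.63 ± 0.20 on the log2 scale (SE), a ratio of 0.648, with limma's adjusted p of 0.0224, and 4 of its 5 probe sets passed, with differences of -0.63 to -1.17 over the 5. P4ha2, a subunit of the enzyme that hydroxylates collagen, lay between 5.61 and 10.47 with a median of 7.78 in 129, against 5.62 to 7.91 with a median of 6.70 in B6. Here the high arrays were those of 129 males. P4ha2 rose by 1.09 ± 0.37 (SE), a ratio of 2.14, with limma's adjusted p of 0.0286, and differed by 1.52 and 2.55 in males and by 0.17 and 0.14 in females with Cdca7l and vector.

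Ankrd37, a small ankyrin-repeat protein induced by HIF, lay between 3.26 and 8.65 with a median of 4.69 in 129, against 3.19 to 5.91 with a median of 3.85 in B6. Its 4 highest arrays were 129 females of the clone labels 4(1) and 2(1), both with Cdca7l and with vector, while the other 4 arrays of 129 females lay between 3.26 and 4.08. Ankrd37 rose by 1.35 ± 0.50 on the log2 scale (SE), a ratio of 2.54, with limma's adjusted p of 0.0478. Vegfa (the angiogenic growth factor), Adm (adrenomedullin), Bnip3, Car9 (a carbonic anhydrase), P4ha1 and Ero1l (an oxidase of protein folding) did not pass, with differences from -0.68 (Car9) to 0.28 (Adm).

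The calls depended on the scaling and the filter: Epas1 (adjusted p of 0.0563) and Ankrd37 (0.0552) did not pass after quantile normalization, where Hk2 did (0.0395), and P4ha2 (0.0525), Epas1 (0.0693) and Ankrd37 (0.0855) did not pass with no filter on low values. They also depended on how clone labels were treated. With the clone label as a random block, Eno2 (adjusted p of 0.0146), Pfkm (0.0381) and Ndrg1 (0.0392) passed, and P4ha2 (0.0756), Ankrd37 (0.0995), Pgam1 (0.113) and Epas1 (0.119) did not. With arrays of 1 clone label averaged, Eno2 was the single member that passed (adjusted p of 0.0395). Eno2, Ndrg1 and Pfkm passed with each of the 37 arrays left out in turn. P4ha2 passed in 33 of these 37 fits and was lost without any 1 of the 129 female arrays of clone labels 4(1) and 2(1). Pgam1 passed in 25, Epas1 in 14 and Ankrd37 in 13. The count of 7 became 3 without 129 female Cdca7l 4(1) or 2(1), 11 without 129 female Cdca7l 1(3), and 4 without 129 female vector 4(1), B6 female Cdca7l 3(3), B6 female Cdca7l 1(4), B6 female vector 4(5), B6 female vector 3(3), 129 male Cdca7l 3(1), 129 male Cdca7l 5(1), 129 male vector 3(3) or B6 male vector 5.6(1).

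Cell-type markers were read in the same comparison, 129 minus B6, in which 25.2% of all tested probe sets passed. The lists are short, so each count is to be read beside that share. Of the 9 astrocyte markers tested, 4 passed and all 4 were lower in 129 (Aqp4, Sox9, Slc1a3 and Glul). The log2 of their summed level ran from 15.02 to 16.83 with a median of 16.26 in 129, against 15.80 to 16.89 with a median of 16.63 in B6. Of the 7 markers of fibroblasts and meningeal cells tested, 4 passed and all 4 were higher in 129 (Col3a1, Col1a2, Col1a1 and Dcn). Their summed level ran from 12.66 to 16.20 with a median of 14.98 in 129, against 12.25 to 14.72 with a median of 13.13 in B6, and Slc6a13 was at background on every array. Of 9 proliferation markers 4 passed, all higher in 129. Among the remaining lists, 3 of 5 ependymal and choroid, 2 of 4 oligodendrocyte lineage and 1 of 5 pericyte markers passed as lower, 1 of 2 endothelial markers passed as higher, 3 of 5 neuron markers passed (1 higher, 2 lower) and 0 of 8 microglia markers passed. The part of these cell types in the strain differences of the members was not tested, and in bulk RNA fewer cells of a type and less RNA per cell cannot be told apart.

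Other genes of the same pathways also passed at about the background rate, 25.2% of all tested probe sets. Of 14 further glycolysis genes tested, 4 passed (28.6%), 2 higher and 2 lower in 129. Of 26 further hypoxia genes 7 passed (26.9%), 4 higher and 3 lower. Of 15 genes of pyruvate oxidation 3 passed (20%), all lower. The 6 with the smallest p were Pgm1 (phosphoglucomutase, -0.77), Pdp1 (a phosphatase that reopens the pyruvate dehydrogenase complex, -1.16), Car12 (a carbonic anhydrase, -1.40), Arnt2 (a partner of HIF alpha, -0.60), Lox (lysyl oxidase, 3.40) and Slc2a4 (the insulin-regulated glucose carrier, -1.23), given as log2 differences of 129 minus B6 with limma's adjusted p between 0.000137 and 0.00951.

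**Figure D2:**
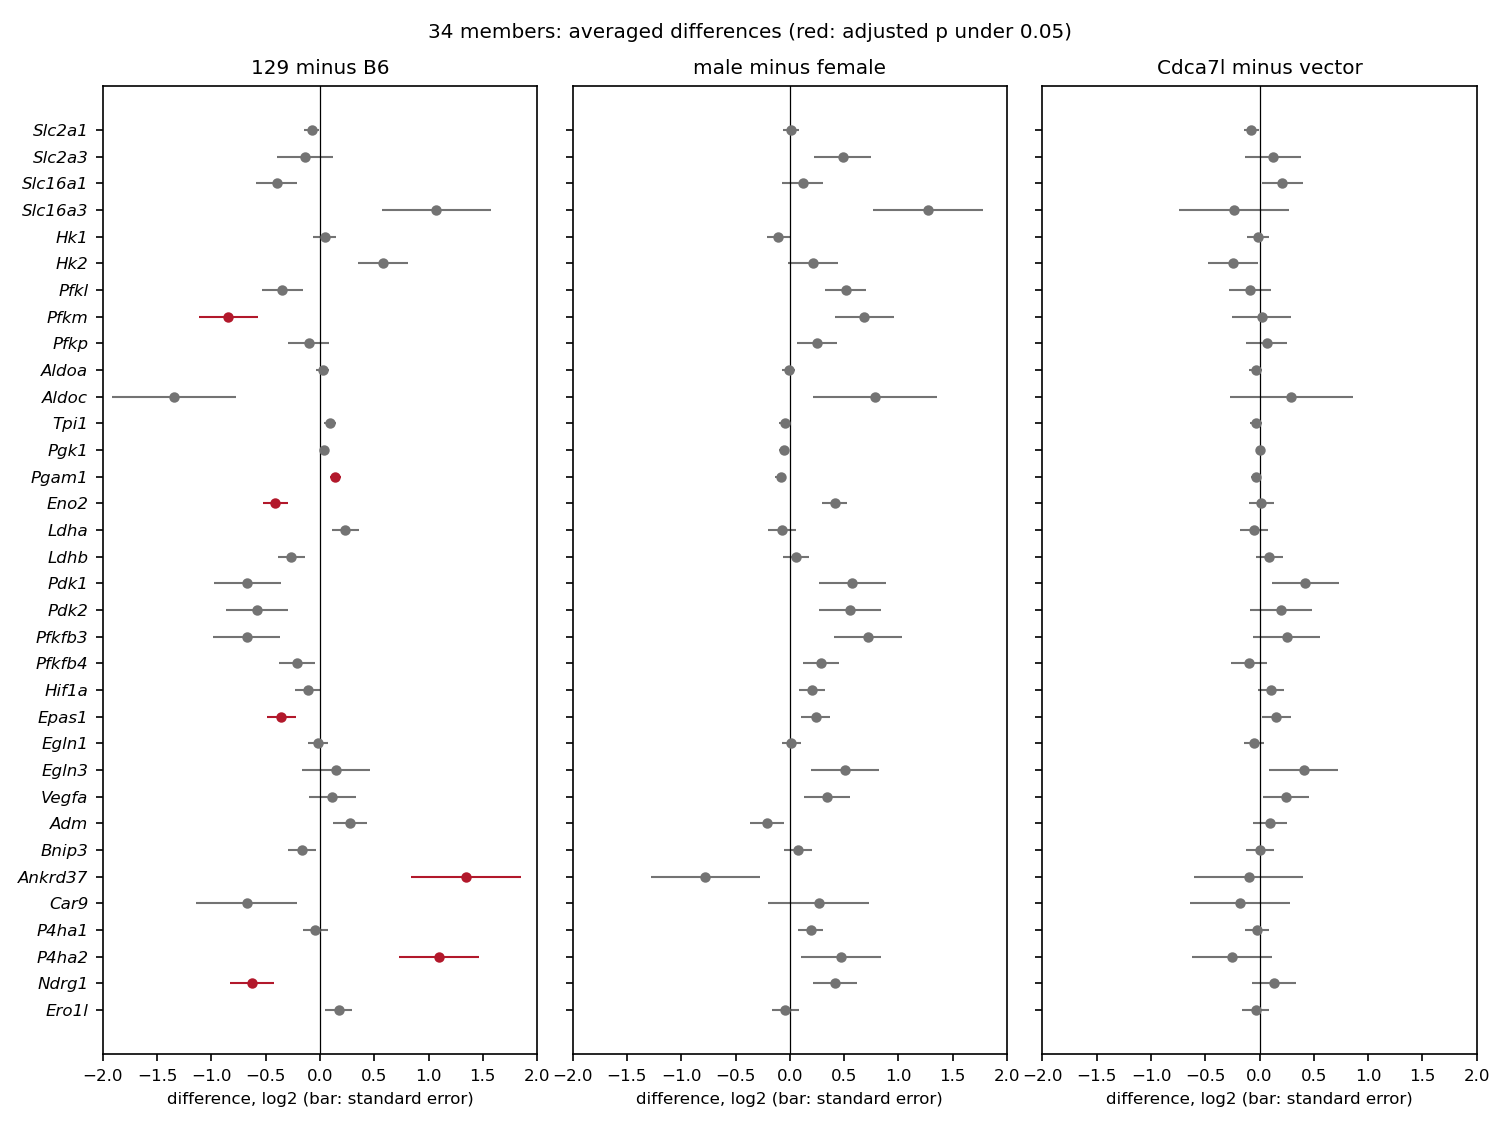
Differences on the log2 scale (horizontal axes) of the 34 members, ordered by role down the page, for 129 minus B6, male minus female and Cdca7l minus vector, each averaged over the other factors, with bars for the standard error and red for an adjusted p under 0.05. The 7 red points all lie in the strain panel, 25 of the 34 points of the sex panel lie above 0, and the points of the plasmid panel lie between -0.26 and 0.42.

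Males were then compared with females, averaged over strain and plasmid. None of the 34 members passed in limma at an adjusted p under 0.05, where 0.321% of all tested probe sets did. Before adjustment 6 members lay under 0.05, about the same share as the 18.1% of all tested probe sets. That count includes Slc16a3, which passed the filter on low values through the males alone. Of the 34 differences, male minus female, 25 were positive, with a median of 0.23 over the members against 0.01 over all tested probe sets. All 4 transporters, all 4 genes of pyruvate and flux control, and all 4 HIF subunits and sensors had positive differences, with Slc16a3 again among the transporters. The summed astrocyte markers ran from 15.59 to 16.88 with a median of 16.51 in males, against 15.02 to 16.89 with a median of 16.24 in females, and 0 of 9 passed (4 had an unadjusted p under 0.05). No marker of any list passed. Of the other lists, 8 of 9 proliferation markers were negative in male minus female (median -0.41, 3 with an unadjusted p under 0.05), and 5 of 7 fibroblast and meningeal markers (median 1.20), 3 of 5 ependymal and choroid markers (median 0.92), 4 of 4 oligodendrocyte lineage markers (median 0.46), 2 of 2 endothelial markers (median 0.57), 5 of 5 pericyte markers (median 0.07), 3 of 5 neuron markers (median 0.25) and 4 of 8 microglia markers (median 0.05) were positive. The part of these markers in the sex differences was not tested.

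Leaving out Slc16a3, which is described apart and without a test, the members with the smallest p were Eno2, Pfkl, Pfkm and Pfkfb3. Eno2 lay between 12.86 and 13.39 with a median of 13.11 in males, against 11.23 to 13.31 with a median of 12.89 in females. Males were tightly grouped, and the females spread down from the same upper end. The difference was 0.41 ± 0.12 (SE, 20 arrays of males and 17 of females), with limma's adjusted p of 0.0936. Without both doubted arrays it was 0.47 with an adjusted p of 0.0473, and without 129 female Cdca7l 1(3) it was 0.47 with an adjusted p of 0.0215. Whether Eno2 passed thus depended on which arrays were included. Pfkl lay between 9.31 and 11.18 in males and between 8.96 and 10.95 in females, a difference of 0.52 ± 0.19 (limma, adjusted p of 0.167). Pfkm lay between 10.35 and 12.90 in males and between 9.57 and 12.34 in females, a difference of 0.69 ± 0.27 (adjusted p of 0.197). Both subunits overlapped between the sexes over most of their range. Pfkfb3 lay between 9.37 and 12.50 in males and between 8.85 and 12.50 in females, a difference of 0.72 ± 0.31 (adjusted p of 0.227).

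Slc16a3 was above background on 6 of 20 arrays of males and on 0 of 17 arrays of females. The 17 include the array labelled B6 female vector 5.1(1), which matched the males by Xist and Eif2s3y. Slc16a3 was at 2.45 on it, below background. The 6 arrays were 5 of 10 of 129 males and 1 of 10 of B6 males, and the remaining males sat at the level of the females. The 5 arrays of 129 males came from 3 of 6 clone labels, 3(1) and 5(1) with both plasmids (8.33 and 7.59 with Cdca7l, 8.05 and 7.54 with vector) and 5(2) with vector (4.82), so they are not 5 separate isolates. In 129 its mean was at least 3.15-fold higher in males (10 arrays, mean log2 of 4.84) than the background bound in females (8 arrays, measured mean of 2.51). No bound above 1 was obtained in B6. The gene passed the filter on low values through the males alone, so no test of its sex difference is given.

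The sex difference was also compared between the strains, as male minus female in 129 minus the same in B6. None of the members passed, as none of all tested probe sets did (0%), while 11 of 34 members and 15.3% of all tested probe sets had an unadjusted p under 0.05. The 11 again include Slc16a3, which passed the filter on low values through the males alone. Members with the smallest p were Egln3 (1.81 ± 0.63), Adm (0.86 ± 0.31), Pdk1 (1.59 ± 0.62), P4ha2 (1.88 ± 0.74) and P4ha1 (0.58 ± 0.23), as log2 differences with their SE and limma's adjusted p of 0.198 to 0.238. Egln3, for example, averaged 10.96 and 10.52 in 129 males with Cdca7l and vector, and 9.68 and 8.97 in 129 females. In B6 it averaged 9.60 and 9.78 in males and 10.40 and 9.76 in females with Cdca7l and vector. Males were higher in 129 with both plasmids, and in B6 they were lower with Cdca7l and close to the females with vector.

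The comparison the study was built for, Cdca7l against vector, showed no member past the threshold. Averaged over strain and sex, 0 of 34 members passed in limma and 0 had an unadjusted p under 0.05, where 0.00782% of all tested probe sets passed and 324 of them lay under 0.05 before adjustment. The differences of the members, Cdca7l minus vector, lay between -0.26 and 0.42 on the log2 scale with a median of 0.01 (0.02 over all tested probe sets). The 5 with the smallest p were Pdk1 (0.42 ± 0.31), Egln3 (0.41 ± 0.31), Epas1 (0.15 ± 0.13), Vegfa (0.24 ± 0.21) and Slc16a1 (0.21 ± 0.19), with SE and limma's adjusted p of 0.999. Pdk1, a kinase of the pyruvate dehydrogenase complex that HIF raises, lay between 8.89 and 11.01 with Cdca7l, against 5.49 to 11.30 with vector. Medians were 9.76 with Cdca7l and 9.73 with vector, and the vector arrays reached past the Cdca7l arrays at both ends. Neither the 8 cell-type lists nor the proliferation list had a marker that passed in this averaged comparison. The summed astrocyte markers had medians of 16.53 with Cdca7l and 16.30 with vector, and all 8 microglia markers tested had negative averaged differences, with a median of -0.93. The direction was not uniform. All 8 were positive in B6 males (median 0.77), and all 8 were negative in 129 males (-2.32), B6 females (-1.56) and 129 females (-0.25).

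**Figure D3:**
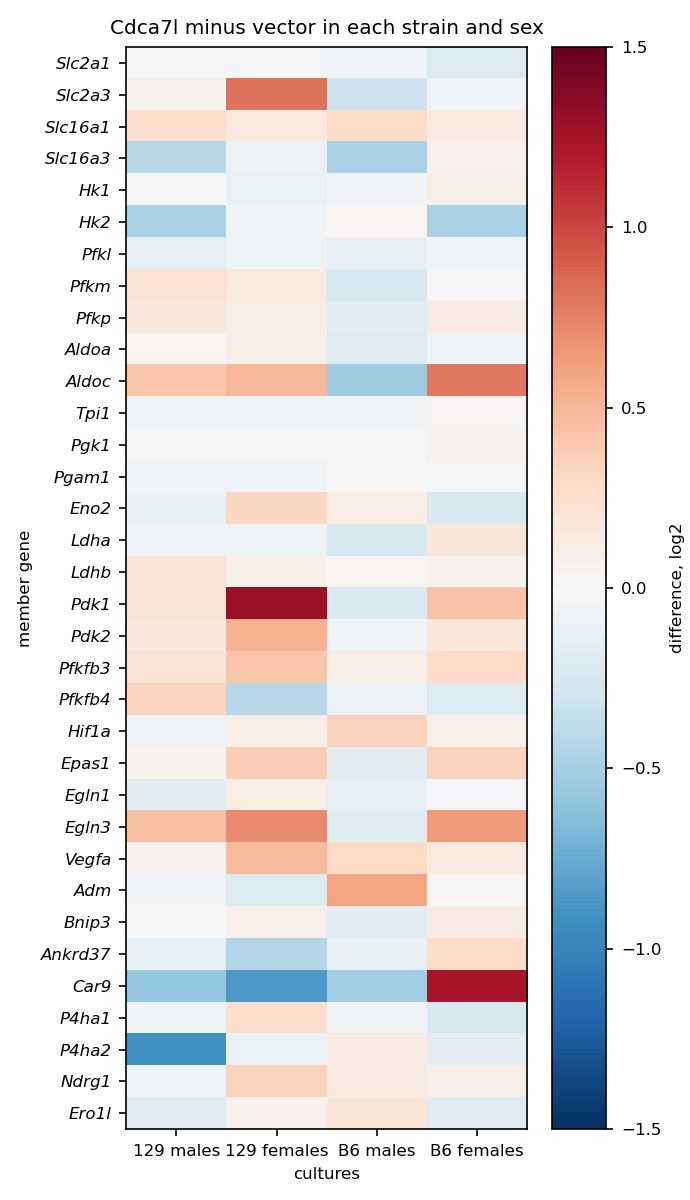
Cdca7l minus vector on the log2 scale (colour) for each of the 34 members (rows) in 129 males, 129 females, B6 males and B6 females (columns). No cell passed the test, and the most positive cells are Pdk1 in 129 females at 1.28 (0.43 without 129 female vector 1(3)) and Car9 in B6 females at 1.24.

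Within each strain and sex none of the members passed either, and none had an unadjusted p under 0.05, as 0% of all tested probe sets passed in limma. In 129 females Pdk1 was 9.31, 9.00, 8.97 and 10.08 on the 4 Cdca7l arrays, against 8.43, 9.63, 5.49 and 8.69 on the 4 vector arrays. The lowest of these was the doubted array of 129 female vector 1(3), and the other vector arrays lay within or just below the Cdca7l range. The difference was 1.28 ± 0.66 (SE, adjusted p of 1.00). Without that array it was 0.43, the lowest of the values with 1 array left out, of which the highest was 1.80. In 129 females Slc2a3 differed by 0.82 ± 0.55, and by 0.04 without the same array, again the lowest, with 1.52 the highest. Epas1 differed by 0.37 ± 0.28, Eno2 by 0.31 ± 0.25 and Pfkfb4 by -0.43 ± 0.35.

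In 129 males P4ha2 was 6.91, 10.47, 5.91, 10.15 and 6.42 with Cdca7l, against 9.00, 10.10, 9.47, 8.43 and 7.41 with vector. The Cdca7l arrays fell into a high pair and a low trio, and the vector arrays lay between them. The difference was -0.91 ± 0.70 (SE), and the next smallest p belonged to Hk2 (-0.49 ± 0.44), Pfkfb4 (0.33 ± 0.32), Egln1 (-0.17 ± 0.17) and Ldhb (0.19 ± 0.23). In B6 males Adm, a vasodilator peptide, was 12.26, 12.37, 12.02, 12.12 and 12.01 with Cdca7l, against 12.51, 12.18, 10.77, 10.99 and 11.37 with vector. The Cdca7l arrays lay close together, 3 of the vector arrays were below all of them, and the difference was 0.59 ± 0.30. Aldoa (-0.20 ± 0.11), Hif1a (0.34 ± 0.23), Ldha (-0.24 ± 0.24) and Slc16a1 (0.27 ± 0.36) followed. In B6 females the 5 smallest p belonged to Slc2a1 (-0.20 ± 0.14), Car9 (1.24 ± 0.94), Epas1 (0.35 ± 0.27), P4ha1 (-0.24 ± 0.23) and Hk2 (-0.48 ± 0.47).

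The Cdca7l effect was compared between the sexes and between the strains, and no member passed in either, as 0% of all tested probe sets did (184 and 429 had an unadjusted p under 0.05). Between the sexes, the effect in males minus that in females had its smallest p in Epas1 (-0.41 ± 0.27), Pdk1 (-0.87 ± 0.62), Pfkfb4 (0.43 ± 0.33), Adm (0.37 ± 0.31) and Egln1 (-0.19 ± 0.18). Between the strains, the effect in 129 minus that in B6 had its smallest p in Aldoa (0.19 ± 0.12), Adm (-0.42 ± 0.31), Slc2a3 (0.62 ± 0.52), Car9 (-1.08 ± 0.93) and P4ha1 (0.25 ± 0.23). Standard errors of this size leave room for effects of a size that these groups could not show. They come from a fit without pairing of same-labelled arrays, whose correlation within a label was 0.409. Such a fit can overstate the error of a plasmid difference. With blocks on the clone label no member passed either. A missed threshold is not evidence of equal expression.

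The members were then compared with each other across cultures of the same group. For each of the 31 members above background on all arrays, deviations from the group means were averaged within each of the 22 clone labels, so that arrays of 1 label count once. The points share the group means that were taken off, and each pair of genes was read from the same arrays. Of the 465 pairs, 156 passed a permutation test of Pearson's r (100000 resamples, two-sided, Benjamini-Hochberg adjusted p under 0.05 over the 465), 104 with positive and 52 with negative r, and the median r was 0.15. As a background, r was at least 0.5 in size in 34.4% of the 465 member pairs, against 18.5% of all pairs of the 18413 probe sets above background on every array, whose median r was 0.03. Pairs share genes and arrays, so these shares are a description.

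**Figure D4:**
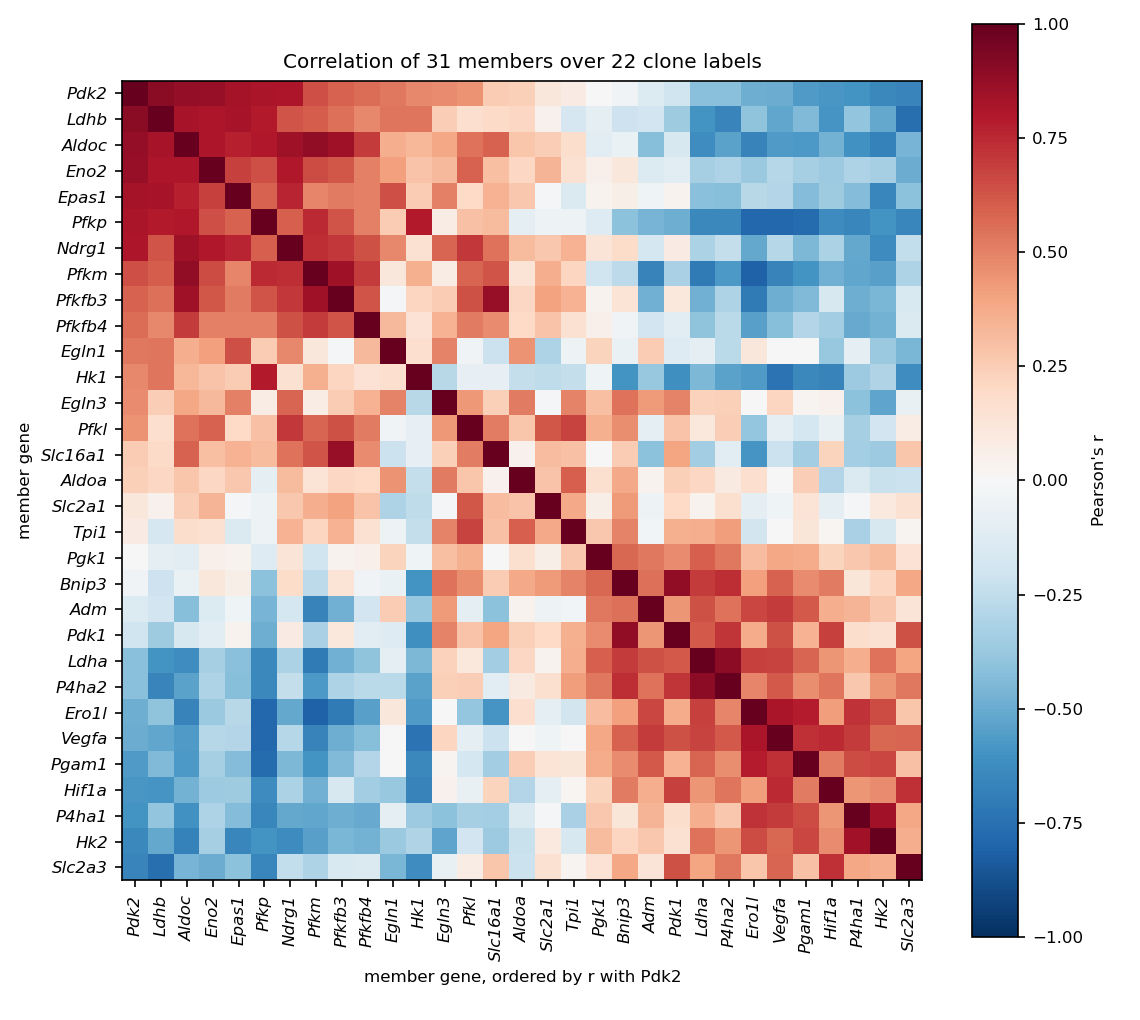
Pearson's r (colour) between 31 members over 22 clone labels, with rows and columns ordered by r with Pdk2. Positive blocks stand at both ends of the order, one from Pdk2 to Pfkfb4 and one from Bnip3 to Slc2a3, with negative r between them, as for Pfkm and Ero1l at -0.81.

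The 6 most positive pairs were Ldhb with Pdk2 (r = 0.90), Ldha with P4ha2 (0.90), Pfkm with Aldoc (0.89), Pdk1 with Bnip3 (0.89), Aldoc with Pdk2 (0.88) and Eno2 with Pdk2 (0.87). Their raw permutation p was 1e-05, the smallest that the resamples can give, or 2e-05, and their adjusted p was 0.000211 or 0.000358. Spearman's rho was 0.76, 0.88, 0.82, 0.84, 0.85 and 0.81 for these pairs in the same order, with adjusted permutation p between 0.00093 and 0.00121. Without the 2 clone labels farthest from the median of the first gene, r was 0.72, 0.85, 0.83, 0.84, 0.84 and 0.62. Ldhb, the lactate dehydrogenase that favours pyruvate, thus went with Pdk2, while Ldha went with a collagen hydroxylase.

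The strains were also taken apart, with 10 clone labels of 129 and 12 of B6. Ldhb with Pdk2 had r of 0.96 in 129 and 0.69 in B6, and Eno2 with Pdk2 had 0.96 in 129 and 0.56 in B6. Ldha with P4ha2 had 0.95 in 129 and 0.73 in B6. Pfkm with Aldoc had 0.90 in 129 and 0.89 in B6, and Pdk1 with Bnip3 had 0.88 in 129 and 0.92 in B6. All 6 pairs kept a positive r in both strains.

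**Figure D5:**
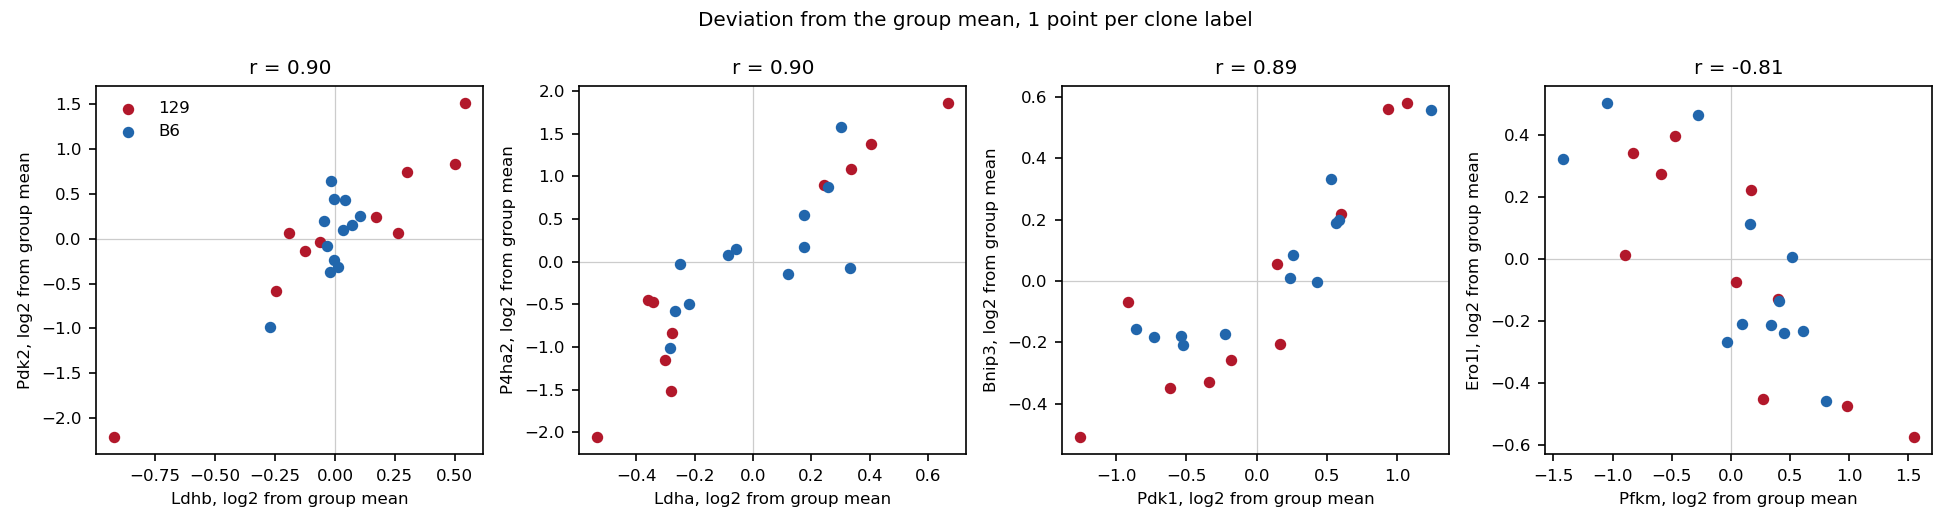
Deviation from the group mean on the log2 scale of 2 members at a time (axes), with 1 point for each of the 22 clone labels, red for 129 and blue for B6. Ldhb with Pdk2, Ldha with P4ha2 and Pdk1 with Bnip3 rise together, Pfkm with Ero1l run against each other, and a single 129 label lies far down in the first panel.

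The 6 most negative pairs were Pfkm with Ero1l (r = -0.81), Pfkp with Vegfa (-0.79), Pfkp with Ero1l (-0.78), Pfkp with Pgam1 (-0.77), Slc2a3 with Ldhb (-0.76) and Hk1 with Vegfa (-0.74). Their adjusted permutation p lay between 0.000211 and 0.0031, and Spearman's rho was -0.79, -0.80, -0.80, -0.70, -0.56 and -0.79 in the same order. Slc2a3 with Ldhb rested partly on 2 clone labels: without them r was -0.44, and it was -0.86 in 129 and -0.31 in B6. The other 5 had r between -0.69 and -0.84 without their 2 farthest labels. Phosphofructokinase subunits of the muscle and platelet types thus ran against Ero1l and, for Pfkp, against Vegfa and Pgam1.

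Members differed in how many others they varied with. Ndrg1 had 12 positive and 3 negative pairs past the threshold, Aldoc 11 and 7, Vegfa 11 and 5, Pfkfb3 11 and 1, and Pfkm 10 and 8. Slc2a1 had 1 pair, with Pfkl at r = 0.62, and Aldoa and Tpi1 had 2 each. Pgam1, also of little spread, had 7 positive and 5 negative pairs, and Egln3, of wide spread, had 3 positive and 1 negative.

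Marker lists of cell types ran along with these blocks. Over the same 22 clone labels, 60 relations of 6 members with 9 list scores and the upper quartile of the arrays were computed after the pairs had been seen. The astrocyte marker score correlated with Aldoc at r = 0.96 (rho = 0.92), with Pdk2 at 0.88 (rho = 0.87) and with Ldhb at 0.84 (rho = 0.75), each with a permutation p of 1e-05 and an adjusted p of 8.6e-05 over the 60. Without the 2 labels farthest in that score, r was 0.92, 0.74 and 0.66. The score of fibroblast and meningeal markers correlated with Ldha at r = 0.81 (rho = 0.79), with P4ha2 at 0.81 (rho = 0.76) and with Bnip3 at 0.80 (rho = 0.67), with adjusted permutation p of 8.6e-05 to 0.000133. Without the 2 farthest labels these were 0.77, 0.74 and 0.73. Other scores ran alongside: that of the oligodendrocyte lineage had r of 0.75 to 0.89 and that of ependymal and choroid cells 0.58 to 0.77 with Aldoc, Pdk2 and Ldhb, while that of endothelial markers, most of them near background, had 0.62 to 0.76 with Ldha, P4ha2 and Bnip3 and -0.65 to -0.50 with Ldhb, Aldoc and Pdk2. The pericyte score had 0.63 with Ldha, 0.56 with P4ha2 and -0.67 with Aldoc, and the proliferation score had -0.67 with Ldhb and -0.65 with Aldoc. In all, 33 of the 60 relations had an adjusted p under 0.05. Bnip3 had r = 0.02 with the astrocyte score. Ldha and P4ha2 had negative r with it, -0.57 and -0.48 (adjusted permutation p of 0.0145 and 0.0454). The upper quartile of the arrays had r between -0.48 and 0.50 with the 6 members, with an adjusted p under 0.05 for Aldoc, Ldha and P4ha2. Members and scores come from the same arrays. The part of cell type in the co-variation was not tested.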

How the data were processed

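RNA of 37 cultures was measured on 37 one-colour arrays. The deposited table holds log2 expression values of 45101 probe sets. These log2 values come from the authors, with GCRMA and Partek 6.5 named in the submitters' processing notes. The sources used here do not say whether the arrays were normalized jointly, and nothing further was done to them. Genes were named from the platform annotation through Entrez IDs. It gave 1 symbol to 34958 probe sets, several to 932 and none to 9211. The members, the other lists and the tests were chosen with earlier results of these data known. Every member is named, members past the threshold with their values, and otherwise the 5 with the smallest p in a comparison, with at most 6 genes of other lists and the 6 highest and 6 lowest pairs. The median of the table, 3.189, served as background, and the 25579 probe sets above it on at least 4 arrays were tested, without 64 control probe sets. A single fit by limma 3.58.1 (R 4.3.3) took all 37 arrays, with 8 group means and 29 residual degrees of freedom. A fold against a group at background on every array is a bound. The number of arrays limits the precision of array values.

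Same-labelled Cdca7l and vector arrays had deviations that correlated at 0.061 to 0.716 in 129 females, -0.0887 to 0.623 in 129 males, 0.432 to 0.775 in B6 females and 0.376 to 0.572 in B6 males. Every pair was over 0.1 in B6 (7 of 7), and 6 of 8 were in 129. The main fit used no pairing in either strain, and the blocks on the clone label treated both strains alike. The pairing comes from the clone labels in the sample titles. The correlation within a label was 0.409 over all arrays. The fit and the permutation test were tested on simulated data. Alternatives were a variance trend, no filter, quantile normalization, array quality weights, blocks on the clone label, averaging within it, the mean over the probe sets of a gene and each array left out. Leaving out 2 doubted arrays together, the shares over all probe sets for pairs and spread, and the marker relations were chosen after seeing the data. Promoter windows came from RefSeq (GRCm38.p6).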

Additional observations from a re-analysis of the deposited data

Results flagged for a closer look

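In 22 of 272 combinations of a member and a group, 1 array lay far from the others by Dixon's test. Chance alone flags about 1 in 20 such combinations. Values are log2 levels, each set against the nearest other array of its group. Among 129 arrays with Cdca7l, female 1(3) was high in Pfkfb3 (12.50, nearest 9.92) and Egln3 (10.71, nearest 9.47), and male 3(2) was high in Car9 (5.33, nearest 2.51). Among 129 arrays with vector, female 1(3), which also had the low upper quartile, was high in Slc2a1 (13.78, nearest 13.22) and low in Vegfa (6.62, nearest 9.03) and P4ha1 (10.79, nearest 11.85). Male 3(3) with vector was low in Slc16a1 (11.26, nearest 12.64) and Pfkfb3 (9.75, nearest 11.52).

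Among B6 arrays with Cdca7l, female 6(3) was low in Pfkm (9.93, nearest 11.93), Pfkp (12.30, nearest 12.54) and Aldoc (10.19, nearest 13.14). Female 4(5) was high in Slc16a3 (2.82, nearest 2.44, all at background) and Aldoa (14.38, nearest 14.12). Male 3(5) was low in Hk1 (11.58, nearest 12.00) and male 4(3) in Pfkm (11.12, nearest 12.13). Among B6 arrays with vector, female 2.1(1) was high in Slc16a3 (2.66, nearest 2.45, all at background) and Ankrd37 (5.91, nearest 3.85). Male 2(4) was high in Slc16a3 (4.98, nearest 2.57) and P4ha2 (7.91, nearest 6.25). Male 3(5) was low in Eno2 (12.86, nearest 13.11), and male 4(3) was low in Aldoc (11.35, nearest 13.41) and Pfkfb3 (9.37, nearest 11.99).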

How the results depend on the processing

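Of the 10 counts of members, those of the 7 Cdca7l comparisons stayed at 0 under the alternatives run, the blocks on the clone label among them. The count of 7 for 129 minus B6 was 4 with no filter on low values (without P4ha2, Epas1 and Ankrd37), 18 with array quality weights, 3 with the random replicate block on the clone label and 1 with arrays of 1 clone label averaged, and it ran from 3 to 11 with each array left out. The count of 0 for male minus female was 10 with array quality weights and 1 without both doubted arrays, and ran from 0 to 1 with each array left out. That of 0 for the sex difference between strains was 9 with array quality weights. The iteration for those weights did not fully converge. Single values reversed in 7 cases, all of unadjusted p above 0.05: under array quality weights Slc2a3 in 129 females (-0.37), the Egln1 effect between the sexes (0.069) and the Slc2a3 effect between the strains (-0.074); with the fixed replicate block Hk2 in B6 females (0.0096); with the mean over probe sets the Aldoa effect between the strains (-0.0062); without 129 female vector 4(1) Eno2 in 129 females (-0.0022, with 0.58 the highest over arrays left out); and without B6 male vector 4(3) Slc16a1 in B6 males (-0.061, with 0.51 the highest). Over all probe sets, 82 passed for male minus female, against 6437 with array quality weights, 19 with the random block, 22 with labels averaged, 30 by gene means, 260 without both doubted arrays and 35 to 947 with each array left out. For 129 minus B6, 6456 passed, against 12132, 4249, 3653 and 3379 under the first 4 of these. The sex difference between strains had 0, against 6227 with array quality weights, 3 with a variance trend and 0 to 411 with each array left out. The averaged Cdca7l effect had 2, and 1 with the fixed block. Within a strain and sex array quality weights gave 3, 98, 73 and 51 in 129 females, 129 males, B6 females and B6 males, and other settings at most 4. Of the 465 pairs, 152 passed under quantile normalization and 152 without both doubted arrays. Signals at background limit Slc16a3 and Car9.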
